A study of Homo sapiens with 2 samples.

Results

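A group of 35 genes of lipid storage and use was followed in 786-O cells, an established human line from a clear cell renal carcinoma. It comprised 5 genes of the droplet coat and its lipases, 14 of glycerolipid synthesis, 12 of fatty acid oxidation and 4 PPAR regulators, out of 22595 gene symbols in all. The genes were picked by name from known pathway roles, with earlier results of these data known. The rows with exactly those symbols were taken from both count tables. Transcripts had been counted per gene model in total RNA from 1 culture in medium with 0 mM glucose and 1 culture in medium with 25 mM glucose, the question being how the cells respond to glucose starvation. Both cultures were of the same line, in which VHL, the gene whose product leads HIF proteins to degradation, is mutated. The sources used here do not state how long glucose was absent, and they do not explain the short description of each sample (LucG without glucose, LucF with it). Each condition had 1 library, so no difference has a replicate check, no test was made, and higher and lower describe the pair of libraries.

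Clear cell carcinoma takes its name from cytoplasm filled with glycogen and neutral lipid. Fatty acids enter storage by stepwise addition to a glycerol backbone (GPAT, AGPAT, lipin and DGAT enzymes, in that order), and the triglyceride is kept in droplets coated with perilipins. Lipases release the fatty acids again, the carnitine shuttle (CPT1, CPT2) carries them into mitochondria, and the beta-oxidation spiral shortens them to acetyl-CoA. PPAR nuclear receptors are activated by fatty acids and switch on genes of storage and of oxidation.

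The library without glucose held 31345853 counts and the library with glucose 27317598. Levels are given as CPM, counts per 1e6 of the library size after TMM scaling. All 35 genes had at least 20 counts over both libraries, the minimum for a measured gene, which 14240 genes met. Genes of small RNAs took 8.03% of the counts without glucose and 5.86% with glucose. Of the renal markers, PAX8, a transcription factor of the renal epithelium, stood at 232 CPM without glucose and 244 CPM with glucose, PAX2 was low at 1.20 CPM without glucose and 2.41 CPM with glucose, KRT8, KRT18 and VIM were above 100 CPM in both libraries, EPAS1 stood at 422 CPM without glucose and 134 CPM with glucose (3.14-fold higher, interval 3.03 to 3.26), and CA9 had 0 counts without glucose and 4 with glucose. None of 6 adipocyte, 4 muscle, 4 leukocyte and 3 endothelial markers reached 20 counts, and of 4 hepatocyte markers APOB alone did, at 0.781 CPM without glucose and 1.26 CPM with glucose. In bulk RNA, fewer cells of a kind and less RNA per cell cannot be told apart.

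In 3 families, the perilipins, the lipins and the PPAR receptors, the listed gene that was most abundant per kb of gene model differed between the libraries, while most of the 35 genes were within 2-fold. Their summed level was 1818 CPM without glucose and 1914 CPM with glucose. PLIN2 and PPARG were higher without glucose and PLIN3 and LPIN1 were lower, by a rule of size that asks for an exact 95% counting interval wholly past 2-fold. Among all measured genes 3.76% were higher and 6.20% were lower by this rule, against 2 and 2 of the 35. The median log2 ratio of the 35 genes was 0.09, against 0.01 over all measured genes, and 17 of the 35 lay between the 25th and the 75th percentile of all measured genes. These counts are near the background.

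**Figure D1:**
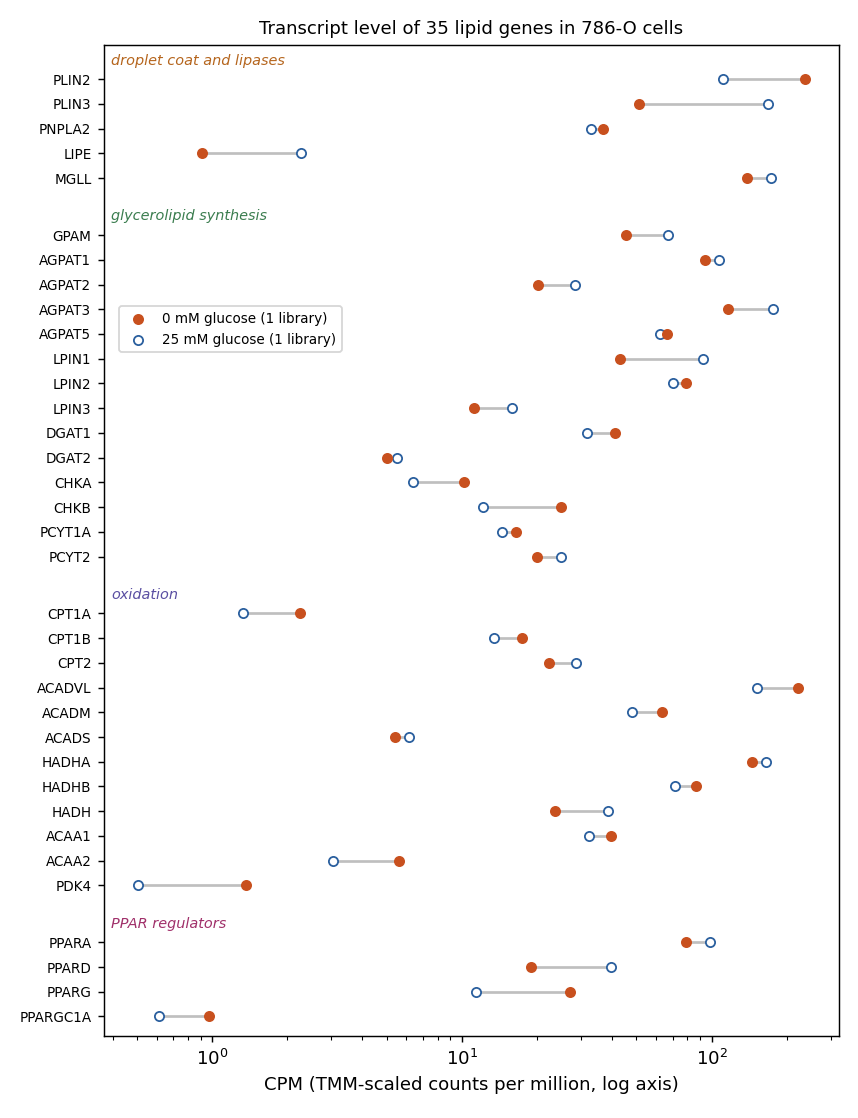
Transcript level of each of the 35 genes in CPM on a log axis, with 1 filled point for the library with 0 mM glucose and 1 open point for the library with 25 mM glucose. PLIN3 and PLIN2 trade places, and CPT1A, PDK4, PPARGC1A and LIPE are the 4 genes under 3 CPM in both libraries.

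The 2 perilipins of the list moved in opposite directions. PLIN2, the adipophilin coat protein that stays on droplets and is degraded when free of lipid, stood at 237 CPM without glucose and 111 CPM with glucose. The library without glucose was 2.13-fold higher (95% counting interval 2.04 to 2.22), at percentile 93.8 of all measured genes. With scaling by total counts its log2 ratio was 1.03, against 1.09, and its interval no longer cleared the bound. PLIN3, the coat protein TIP47 that also exists free in the cytosol and moves onto new droplets, stood at 51.1 CPM without glucose and 168 CPM with glucose. It was 3.29-fold lower without glucose (interval 3.11 to 3.49), at percentile 3.6. Per kb of gene model, PLIN2 was 5.48-fold above PLIN3 without glucose (interval 5.19 to 5.80) and 0.783-fold of it with glucose (0.748 to 0.820), so the more abundant perilipin of the pair differed between the libraries. All 8 PLIN2 exons had over 10 reads in both libraries, by the authors' deposited exon counts, and so did 9 of 10 PLIN3 exons without glucose and 10 of 10 with glucose. In hg19, PLIN2 lies on chromosome 9 from 19115759 to 19127573 and PLIN3 on chromosome 19 from 4838346 to 4867780, both on the minus strand.

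The stretch around the start of both perilipin genes is shown because these genes moved in opposite directions. Sequences are from RefSeq, build GRCh38.p14, from 250 bases before to 50 after the start site, and capitals mark the E-box CACGTG, the CCAAT box and the GC box GGGCGG on either strand.
PLIN2, chr9:19127443-19127742, minus strand: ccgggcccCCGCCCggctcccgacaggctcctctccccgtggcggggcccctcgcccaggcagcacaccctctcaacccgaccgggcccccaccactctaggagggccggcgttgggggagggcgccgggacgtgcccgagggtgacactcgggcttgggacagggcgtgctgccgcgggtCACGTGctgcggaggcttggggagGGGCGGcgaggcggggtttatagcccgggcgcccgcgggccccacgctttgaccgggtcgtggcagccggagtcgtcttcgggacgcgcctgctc
PLIN3, chr19:4867618-4867917, minus strand: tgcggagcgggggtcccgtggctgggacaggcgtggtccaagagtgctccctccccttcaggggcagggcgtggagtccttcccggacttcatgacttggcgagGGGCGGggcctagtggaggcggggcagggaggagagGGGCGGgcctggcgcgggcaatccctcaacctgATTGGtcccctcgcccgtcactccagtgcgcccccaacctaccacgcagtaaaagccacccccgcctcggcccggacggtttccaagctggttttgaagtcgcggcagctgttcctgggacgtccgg
The PLIN2 window held 1 E-box, 2 GC boxes and 0 CCAAT boxes, and the PLIN3 window 0 E-boxes, 2 GC boxes and 1 CCAAT box. The E-box occurs in 7.26% of all 35116 windows of this length, the CCAAT box in 34.6% and the GC box in 45.0%. A match is a description of the letters and not a bound site.

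Windows were found for 27 of the 35 genes, 46 in all since some genes have several starts, and none for MGLL, AGPAT5, LPIN3, DGAT1, DGAT2, CHKA, CPT1B and ACAA1. The E-box was in 3 of the 46 windows (6.52%, against 7.26% of all windows), those of PLIN2, LPIN2 and PPARGC1A. The shorter core ACGTG of hypoxia response elements, which the E-box contains, was in 6 of the 46 windows (13.0%, against 21.4% of all windows), those of PLIN2, AGPAT3, LPIN2, ACADVL, PPARG and PPARGC1A. The site AGGTCA bound by nuclear receptors was in 5 of the 46 windows (10.9%, against 13.8% of all windows), which belong to PNPLA2, AGPAT1 and PPARG. Its direct repeat with 1 base between the copies, the PPAR response element in its strict form, was in 0 of the 46 windows and in 0.0228% of all, and the ER stress element, a CCAAT box followed after 9 bases by CCACG, was in 0 of the 46 and in 0.0769% of all. The CCAAT box was in 15 of the 46 windows (32.6%, against 34.6% of all windows). The GC box was in 28 of the 46 (60.9%, against 45% of all windows), and this difference was not tested. Both strands were searched.

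None of the 3 lipases had an interval wholly past 2-fold, but LIPE did at 1.5-fold. PNPLA2, adipose triglyceride lipase, which takes the first fatty acid off triglyceride, had 36.9 CPM without glucose and 32.99 CPM with glucose (1.12-fold, interval 1.02 to 1.22). MGLL, monoglyceride lipase, which takes off the last, had 138 CPM without glucose and 173 CPM with glucose (0.801-fold, 0.768 to 0.834). LIPE, hormone-sensitive lipase, was the least abundant at 0.911 CPM without glucose and 2.26 CPM with glucose, from 28 counts without glucose and 63 with glucose. It was 2.48-fold lower without glucose, its interval of 1.57 to 4.03 crossed the 2-fold bound, and 0 of its 10 exons had over 10 reads without glucose and 1 with glucose. The order of the lipases per kb, MGLL above PNPLA2 above LIPE, was the same in both libraries.

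**Figure D2:**
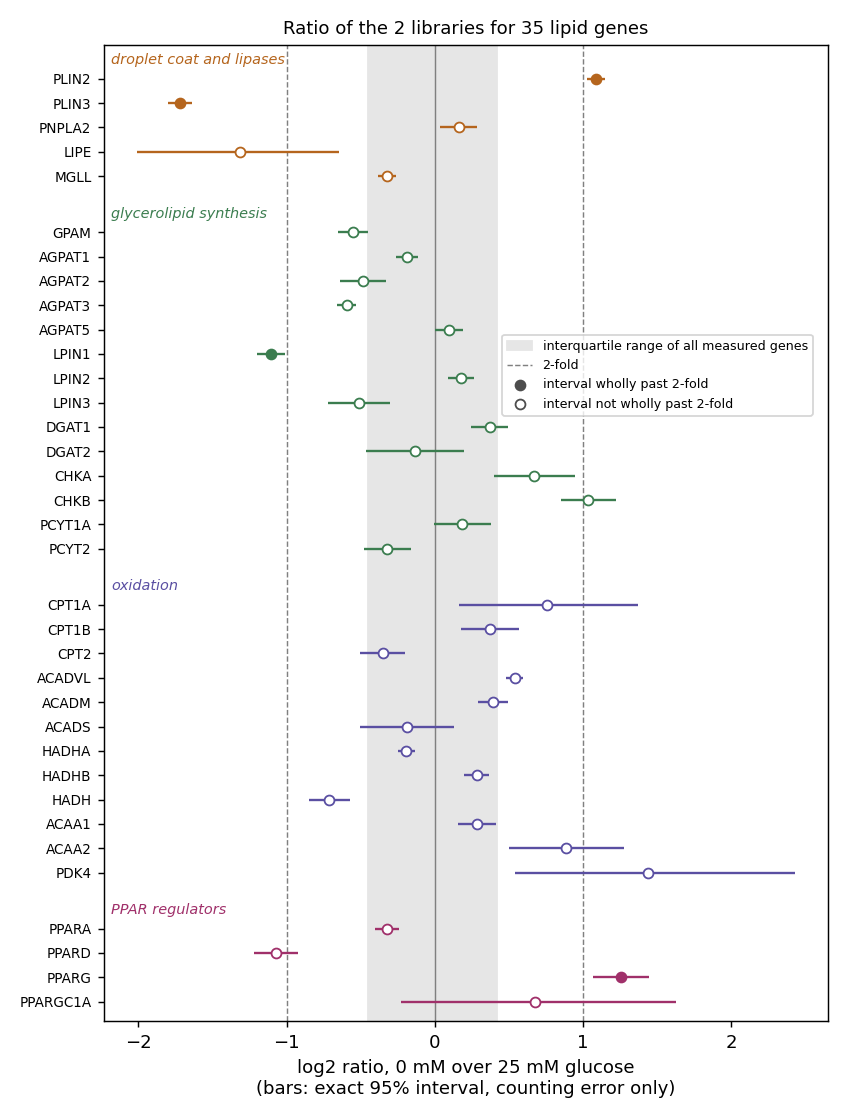
Log2 ratio of the library with 0 mM glucose over the library with 25 mM glucose for each gene, with exact 95% intervals that cover counting error only. Filled points (PLIN2, PLIN3, LPIN1 and PPARG) have intervals wholly past the dashed 2-fold lines, and the grey band is the interquartile range of all measured genes (log2 -0.45 to 0.42).

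Glycerolipid synthesis genes had a summed level of 594 CPM without glucose and 714 CPM with glucose, 0.831-fold. Of the 14, 0 were higher and 1 was lower by the rule, with a median log2 ratio of -0.16. A log2 ratio below 0 was found in 8 of 14, and in 6987 of all 14240 measured genes. The first enzyme, mitochondrial glycerol-3-phosphate acyltransferase GPAM, had 45.5 CPM without glucose and 66.8 CPM with glucose (1.47-fold lower, interval 1.37 to 1.57).

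The AGPAT enzymes add the second acyl chain to make phosphatidic acid. AGPAT3 had 117 CPM without glucose and 176 CPM with glucose (1.51-fold lower, interval 1.45 to 1.58). AGPAT2, the isoform lost in a congenital lipodystrophy, had 20.3 CPM without glucose and 28.3 CPM with glucose (1.40-fold lower, 1.26 to 1.56). AGPAT1 had 94.4 CPM without glucose and 107 CPM with glucose (1.14-fold lower), and AGPAT5, a mitochondrial isoform, had 66.1 CPM without glucose and 61.9 CPM with glucose (1.07-fold higher). AGPAT1 took the largest share of the 4 per kb in both libraries, 48.3% without glucose (interval 47.2 to 49.4%) and 44.7% with glucose (43.7 to 45.8%). AGPAT1 lies in the major histocompatibility complex, and its 6 further rows on haplotype contigs held 0 counts.

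Lipins remove the phosphate to give diacylglycerol, and in the nucleus LPIN1 also acts as a transcriptional coactivator. LPIN1 had 43.2 CPM without glucose and 92.8 CPM with glucose, 2.15-fold lower (interval 2.01 to 2.30). LPIN2 had 79.2 CPM without glucose and 70.1 CPM with glucose, 1.13-fold higher (1.06 to 1.20). LPIN3 was lowest in both libraries, with 11.2 CPM without glucose and 15.9 CPM with glucose. LPIN2 was thus the leading lipin per kb without glucose, with 54.5% of the 3 (52.9 to 56.0%), and LPIN1 the leading one with glucose, with 53.8% (52.4 to 55.1%). The LPIN1 model spans 11886740 to 11967533 of chromosome 2 (plus strand, hg19). Its interval ended near the bound, and it did not pass the rule with upper-quartile scaling, with small RNA genes left out or with 1 CPM added.

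The last step to triglyceride is made by DGAT1 or DGAT2, which are unrelated in sequence. DGAT1 had 41.0 CPM without glucose and 31.7 CPM with glucose (1.29-fold, interval 1.19 to 1.41). DGAT2 had 5.01 CPM without glucose and 5.49 CPM with glucose, and its interval of 0.724-fold to 1.15-fold spanned equality. DGAT1 took 84.4% of the pair per kb without glucose (82.1 to 86.6%) and 79.3% with glucose (76.3 to 82.0%). The DGAT1 model overlaps that of HSF1 on the other strand by 138 bases, and whether counting used strand is not given. In all, the models of 10 of the 35 genes overlap another model. Among them, LPIN2 overlaps LOC727896 on the same strand by 3408 bases. On the other strand, ACADVL overlaps DLG4 by 216 bases and CPT2 overlaps C1orf123 by 97 bases.

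Choline and ethanolamine branches lead from diacylglycerol to membrane phospholipids. CHKA, the choline kinase alpha often raised in tumours, had 10.2 CPM without glucose and 6.39 CPM with glucose (1.59-fold, interval 1.32 to 1.93), with 9 of its 12 exons over 10 reads without glucose and 4 with glucose. PCYT1A, the rate-limiting enzyme of phosphatidylcholine synthesis, had 16.4 CPM without glucose and 14.4 CPM with glucose (1.14-fold, 0.996 to 1.301), and PCYT2, its counterpart for phosphatidylethanolamine, had 19.9 CPM without glucose and 24.9 CPM with glucose (0.800-fold, 0.717 to 0.893). The intervals of these 3 genes lay within 2-fold.

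CHKB, choline kinase beta, and CPT1B, the muscle type of carnitine palmitoyltransferase 1, need to be read together. CHKB had 24.9 CPM without glucose and 12.1 CPM with glucose (2.05-fold, interval 1.80 to 2.34). CPT1B had 17.3 CPM without glucose and 13.4 CPM with glucose (1.29-fold, 1.13 to 1.48). They are neighbours on the minus strand of chromosome 22, 291 bases apart, and a read-through model, CHKB-CPT1B, spans both. Its 1269 counts without glucose and 696 with glucose are close to the summed counts of both genes, 1298 without glucose and 711 with glucose. By the authors' exon counts, 1 of 11 CHKB exons had over 10 reads in both libraries, although the gene had 765 counts without glucose and 338 with glucose, while 12 of the 30 read-through exons did without glucose and 11 with glucose. How reads of shared exons were divided is not given, so the values of CHKB and CPT1B as single genes are uncertain.

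**Figure D3:**
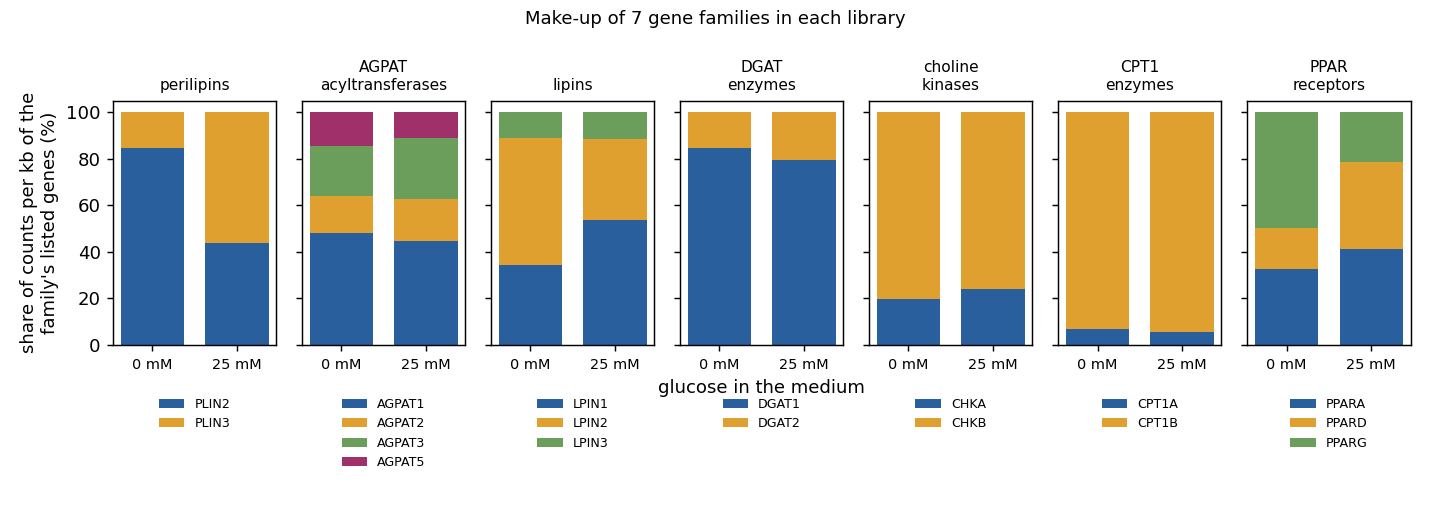
Share of each gene in the counts per kb of its family's listed genes, for 7 families, with the library with 0 mM glucose on the left and the library with 25 mM glucose on the right of each panel. The leading gene per kb differs between the libraries for perilipins, lipins and PPAR receptors, and is the same for AGPAT, DGAT, choline kinase and CPT1 genes.

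Fatty acid oxidation genes had a summed level of 635 CPM without glucose and 562 CPM with glucose, 1.13-fold. None of the 12 passed the rule in either direction. A log2 ratio above 0 was found in 8 of 12, and in 7253 of all 14240 measured genes. The median of the 12 was 0.33. CPT1A, the liver type of the carnitine shuttle's gate enzyme, was low at 2.24 CPM without glucose and 1.33 CPM with glucose, from 69 counts without glucose and 37 with glucose (1.69-fold, interval 1.12 to 2.59). CPT1B, with the limits above, took 93.1% of the pair per kb without glucose and 94.6% with glucose. CPT2, which acts on the inner membrane, had 22.4 CPM without glucose and 28.6 CPM with glucose (1.28-fold lower, 1.15 to 1.42).

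The first step of each oxidation round is made by acyl-CoA dehydrogenases of different chain length. ACADVL, for very long chains, had 222 CPM without glucose and 153 CPM with glucose (1.45-fold, interval 1.40 to 1.51). Per kb it was the most abundant oxidation gene in both libraries. ACADM, for medium chains, had 63.2 CPM without glucose and 48.1 CPM with glucose (1.32-fold, 1.23 to 1.41). ACADS, for short chains, had 5.40 CPM without glucose and 6.14 CPM with glucose, and its interval of 0.706-fold to 1.10-fold spanned equality. The order of the 3 per kb was the same in both libraries.

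HADHA and HADHB encode the alpha and beta subunits of the mitochondrial trifunctional protein, which carries out the remaining steps for long chains. HADHA had 145 CPM without glucose and 166 CPM with glucose (1.14-fold lower, interval 1.10 to 1.19). HADHB had 87.0 CPM without glucose and 71.4 CPM with glucose (1.22-fold higher, 1.15 to 1.29). Per kb, HADHA was 1.20-fold above HADHB without glucose (1.15 to 1.26) and 1.67-fold above it with glucose (1.59 to 1.76), so the transcripts of the 2 subunits were nearer to parity without glucose. The genes stand head to head on chromosome 2, and their hg19 models are 22 bases apart.

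The HADHB window is shown because it holds most of the HADHA window as well. In GRCh38.p14 it is chr2:26244689-26244988 on the plus strand, and the HADHA window, on the minus strand, runs from 26244583 to 26244882. Capitals mark the 194 bases that both windows share.
HADHB, chr2:26244689-26244988, plus strand: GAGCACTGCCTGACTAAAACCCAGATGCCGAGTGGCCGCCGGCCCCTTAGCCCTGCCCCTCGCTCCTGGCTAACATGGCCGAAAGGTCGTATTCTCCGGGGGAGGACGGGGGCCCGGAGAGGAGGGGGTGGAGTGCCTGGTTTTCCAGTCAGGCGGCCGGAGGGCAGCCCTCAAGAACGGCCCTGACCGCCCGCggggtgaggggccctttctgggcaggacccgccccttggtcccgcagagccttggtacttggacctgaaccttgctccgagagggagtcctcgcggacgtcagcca
The start sites given by RefSeq are 307 bases apart.

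The remaining oxidation genes differed in direction. HADH, the dehydrogenase for medium and short chains, had 23.6 CPM without glucose and 38.6 CPM with glucose (1.64-fold lower, interval 1.49 to 1.80). ACAA1, the peroxisomal thiolase, had 39.4 CPM without glucose and 32.3 CPM with glucose (1.22-fold, 1.12 to 1.33). ACAA2, a mitochondrial thiolase, had 5.63 CPM without glucose and 3.05 CPM with glucose (1.84-fold, 1.41 to 2.42), with 6 of its 10 exons over 10 reads without glucose and 1 with glucose. PDK4, the kinase that shuts pyruvate dehydrogenase when fat is burned, had the highest ratio of the 35 genes at 2.72-fold, but it rests on 42 counts without glucose and 14 with glucose. Its interval of 1.46 to 5.39 did not clear 2-fold, and with 1 CPM added its log2 ratio was 0.66, against 1.44.

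The PPAR receptors differed in direction. PPARG, the receptor that drives fat storage, had 27.1 CPM without glucose and 11.3 CPM with glucose, 2.39-fold higher (interval 2.09 to 2.72) and at percentile 95.4 of all measured genes. PPARD, the widely expressed delta receptor, had 18.9 CPM without glucose and 39.6 CPM with glucose, 2.10-fold lower (1.90 to 2.33), with an interval that crossed the bound. PPARA, the receptor that drives hepatic fatty acid oxidation, had 78.7 CPM without glucose and 98.4 CPM with glucose (1.25-fold lower, 1.18 to 1.32). Per kb, PPARG took 49.9% of the 3 without glucose (47.9 to 51.8%) and 21.2% with glucose (19.3 to 23.2%), and PPARD took 17.6% without glucose (16.3 to 18.9%) and 37.5% with glucose (35.9 to 39.1%). PPARA took 32.5% without glucose (31.1 to 34.0%) and 41.3% with glucose (39.8 to 42.9%), so PPARG led per kb without glucose and PPARA with glucose. By plain counts, not divided by length, PPARA led the 3 in both libraries. PPARG was 2.83-fold above PPARD per kb without glucose (2.55 to 3.16) and 0.566-fold of it with glucose (0.498 to 0.642). The PPARG model spans 12329349 to 12475855 of chromosome 3 (plus strand, hg19), and RefSeq gives 6 windows for it, which the counts per gene cannot separate. PPARGC1A, the coactivator PGC-1 alpha, was near the limit of detection, with 30 counts (0.976 CPM) without glucose and 17 counts (0.610 CPM) with glucose, and its interval of 0.854-fold to 3.09-fold spanned equality.

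With a smaller bound, an interval wholly past 1.5-fold, 3 of the 35 genes were higher (PLIN2, CHKB and PPARG) and 4 were lower (PLIN3, LIPE, LPIN1 and PPARD), where 10.2% of all measured genes were higher and 12.6% were lower. With a log2 ratio past 1 and no interval asked for, 4 were higher (PLIN2, CHKB, PDK4 and PPARG) and 4 were lower (PLIN3, LIPE, LPIN1 and PPARD), where 7.34% of all measured genes were higher and 10.6% were lower. The intervals of 4 genes (DGAT2, PCYT1A, ACADS and PPARGC1A) spanned equality, those of 16 lay above it and those of 15 below. Among all measured genes, 73.9% had an interval that excluded equality. Gene model length differed between the role groups, with a median of 3.76 kb for glycerolipid synthesis and 2.44 kb for oxidation. Among measured genes in general, models of 1 to 3 kb had a median log2 ratio of 0.11 and models over 5 kb one of -0.19, and the part of length in the medians of the role groups was not tested.

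Other genes of the same pathways were taken from 4 wider lists of 140 distinct genes, of which 110 were measured. Of these 1 was higher and 7 were lower by the rule, beside 3.76% and 6.20% of all measured genes, and their median log2 ratio stood at -0.13.

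Of 27 further genes of droplets and triglyceride breakdown, 18 were measured, 0 were higher and 3 were lower, with a median of 0.11. The lower genes were G0S2, the inhibitor of PNPLA2, at 3.55 CPM without glucose and 10.5 CPM with glucose (2.97-fold lower, interval 2.37 to 3.73), PNPLA3 at 1.37 CPM without glucose and 4.95 CPM with glucose (3.63-fold lower, 2.55 to 5.25), and METTL7B with 1 count without glucose and 21 with glucose (interval 3.73-fold to 959-fold lower). With 1 CPM added only G0S2 passed the rule, and METTL7B also left with a minimum of 100 counts. ABHD5, the coactivator of PNPLA2, had 46.4 CPM without glucose and 30.7 CPM with glucose (log2 0.60, 1.51-fold, interval 1.39 to 1.65). The G0S2 and ABHD5 transcripts differed in opposite directions, but ABHD5 did not pass the rule, also not with 1.5-fold as the bound. The 3 genes most abundant per kb over both libraries together were HSPA8 (log2 0.17), AUP1, a droplet protein of the ER (166 CPM without glucose and 82.1 CPM with glucose, log2 1.02), and FAF2 (log2 0.12). SOAT1, which esterifies cholesterol for droplets, stood above FAF2 per kb without glucose, with 155 CPM without glucose and 94.7 CPM with glucose (1.64-fold, interval 1.56 to 1.72). The other perilipins, PLIN1, PLIN4 and PLIN5, and the CIDE genes CIDEA, CIDEB and CIDEC had from 0 to 11 counts per library. METTL7B, ABHD5, SOAT1 and these low genes are named after their values were seen.

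Of 39 further genes of glycerolipid and phospholipid synthesis, 33 were measured, 0 were higher and 3 were lower, with a median of -0.17. PPAP2B, a lipid phosphate phosphatase of the cell surface, had 18.7 CPM without glucose and 92.2 CPM with glucose (4.93-fold lower, interval 4.50 to 5.41). ETNK1, ethanolamine kinase, had 36.3 CPM without glucose and 101 CPM with glucose (2.79-fold lower, 2.60 to 2.996), and MBOAT7, which puts arachidonate into phosphatidylinositol, had 53.7 CPM without glucose and 147 CPM with glucose (2.74-fold lower, 2.58 to 2.90). PTDSS1 (log2 0.29) and PISD (log2 0.24), which make phosphatidylserine and turn it into phosphatidylethanolamine, and CHPT1 (log2 0.54), named after its value was seen, were within 2-fold. With 1.5-fold as the bound 1 of the 33 was higher and 9 were lower, where 10.2% of all measured genes were higher and 12.6% were lower. Among the 9 were LPCAT1, LPCAT2, LPCAT3 and LPCAT4, which re-acylate lysophospholipids, with log2 ratios from -1.14 to -0.75, named after their values were seen.

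Of 43 further genes of fatty acid activation and oxidation, 38 were measured and none passed the rule in either direction, with a median of -0.08, where the 12 oxidation genes above had 0.33. The 3 most abundant per kb over both libraries together were ACAT1, mitochondrial acetoacetyl-CoA thiolase (110 CPM without glucose and 81.5 CPM with glucose, log2 0.44), ETFA, a subunit of the electron transfer flavoprotein (log2 -0.05), and PECI, an enoyl-CoA isomerase now called ECI2 (log2 -0.28). The carnitine carrier SLC25A20 (log2 -0.19), named after its value was seen, had an interval that spanned equality.

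Of 32 partners and targets of PPARs, 21 were measured, 1 was higher and 1 was lower, with a median of -0.29. ANGPTL4, a secreted inhibitor of lipoprotein lipase and a PPAR target, had 3.64 CPM without glucose and 0.790 CPM with glucose (4.61-fold, interval 2.90 to 7.65), from 112 counts without glucose and 22 with glucose. NRIP1, a corepressor of nuclear receptors, had 163 CPM without glucose and 442 CPM with glucose (2.72-fold lower, 2.63 to 2.81). VLDLR, a lipoprotein receptor, had 81.2 CPM without glucose and 140 CPM with glucose (log2 -0.78), and NCOR1, another corepressor, had a log2 ratio of -0.25. Of the other pyruvate dehydrogenase kinases, PDK1 had a log2 ratio of 0.57, PDK2 of -0.56 and PDK3 of -0.95, and UCP2 had 61.4 CPM without glucose and 29.0 CPM with glucose (log2 1.08), all named after their values were seen. The PPAR targets CD36, FABP1 and FABP4 had from 0 to 3 counts per library and are likewise named after their values were seen.

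**Figure D4:**
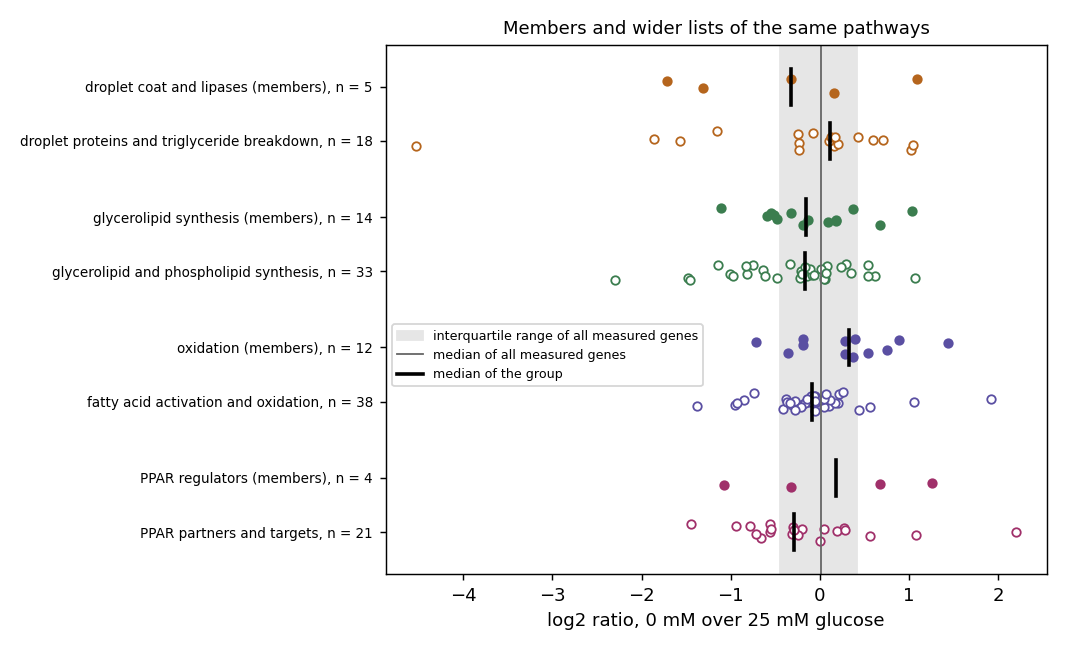
Log2 ratio of the library with 0 mM glucose over the library with 25 mM glucose for the measured members (filled) and the measured genes of the wider lists (open) of each pathway, with a black bar at each median. The medians lie between -0.32 and 0.33, inside the grey band that marks the interquartile range of all measured genes. With a minimum of 100 counts the median of the PPAR regulators was -0.32, against 0.18.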

How the data were processed

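Gene counts of 786-O cells in 0 mM glucose (1 library) and 25 mM glucose (1 library) were used as deposited. The authors' tables give whole-number raw counts per RefSeq gene model, per the file headers, with the hg19 build per the submitters' processing notes. The deposited RPKM values were not used. RNA was harvested with Trizol, per the labels' protocols. The sources used here name no aligner or counter and do not state the use of strand or the treatment of reads shared by models. Rows repeating the place, length and counts of another symbol (528) were dropped and counts summed by symbol. TMM factors (edgeR 4.0.16) were computed on genes with at least 20 counts. Ratios carry exact 95% Clopper-Pearson intervals, with 0 set to 3 counts, which cover counting error only. A gene was called when its interval lay wholly past 2-fold. Shares and levels between genes are per kb of gene model. The procedure was tested on simulated counts that vary by counting error only, so this test does not cover variation between cultures. Members and lists were chosen with earlier results of these data known. All 35 members are named. In each wider list, named genes are those past the rule with at least 1 CPM in either library and the 3 most abundant per kb over both libraries; others are marked. Python 3.11.15 and scipy 1.17.1 were used, with DESeq2 1.42.0 for alternative size factors. Promoter sequences are GRCh38.p14 and were not converted to hg19.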

Additional observations from a re-analysis of the deposited data

How the results depend on the processing

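No paired analysis was possible because there was 1 culture per condition, and leaving out a replicate was not possible either. Leaving out CHKB and CPT1B was chosen after seeing the data and left 2 genes higher and 2 lower. The signs of all 35 log2 ratios were kept under total counts, upper-quartile factors, DESeq2 size factors, small RNA genes left out, 1 CPM added and 1 row per symbol, and shifts of the median of all genes stayed within 0.06. The number called higher was 1 with total counts, where PLIN2 left, and the number called lower was 1 with upper-quartile factors, with small RNA genes left out and with 1 CPM added, where LPIN1 left in each. With 1 CPM added the lower genes of the wider droplet list numbered 1, since PNPLA3 and METTL7B left. With a minimum of 100 counts METTL7B left, which made 2, and the medians were -0.08 for droplet members, against -0.32, and -0.32 for PPAR regulators, against 0.18. The PPAR median was -0.01 with 1 CPM added. With an interval past 1.5-fold, 3 members were higher and 4 lower, against 10.2% and 12.6% of all measured genes. The wider lists then had 3 higher and 4 lower for droplets and 1 higher and 9 lower for glycerolipids. They had 2 higher and 4 lower for oxidation and 2 higher and 3 lower for PPAR partners. With a log2 ratio past 1 and no interval, 4 members were higher and 4 lower, against 7.34% and 10.6% of all measured genes, and the wider lists had 2 higher and 4 lower for droplets, 1 higher and 5 lower for glycerolipids, 2 higher and 1 lower for oxidation, and 2 higher and 1 lower for PPAR partners. These last 2 settings count more genes because the bound is lower or the interval is dropped. Among plain counts, not divided by length, PLIN2 took 82.3% of its family without glucose and 39.8% with glucose, AGPAT1 31.7% without and 28.8% with, LPIN1 32.3% without and 51.9% with, DGAT1 89.1% without and 85.2% with, CHKA 29.0% without and 34.5% with, CPT1A 11.5% without and 9.02% with, and PPARA 63.1% without and 65.9% with. By plain counts AGPAT3 led the AGPAT genes (39.2% without and 47.1% with) and PPARA the PPAR receptors in both libraries, so the change of leading PPAR receptor holds per kb only. Depth limits LIPE, CPT1A, PDK4 and PPARGC1A, which had under 100 counts in each library.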
